A study of Rattus norvegicus with 102 samples.

Results

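Prolactin (Prl), growth hormone (Gh1), the alpha subunit shared by the pituitary glycoprotein hormones (Cga), the beta subunits of luteinizing hormone (Lhb), thyroid-stimulating hormone (Tshb) and follicle-stimulating hormone (Fshb), and the pituitary transcription factor Pou1f1 (Pit-1) were followed in the rat hippocampus. This set was chosen by its measured levels across groups, subfields and rats in these libraries, and each of the 7 symbols matched 1 row of a table of 26689 genes. The levels by cognitive status, age and rat are therefore given as a description with no test. P-values are given for differences between subfields, where the levels were also known when the set was chosen, so they are not independent evidence. The libraries came from the CA1, CA3 and dentate gyrus (DG) of 34 male Fischer 344 rats: 10 young rats of 5 to 6 months and 24 aged rats of 17 to 22 months. The aged rats had been divided by a water maze score of spatial memory into 12 aged-unimpaired (AU) and 12 aged-impaired (AI) animals. No group carried a genetic change or a drug treatment, and every rat had been trained in the maze. Poly-A mRNA was sequenced on the Ion Proton as 1 library for each subfield of each rat.

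In background knowledge, Prl and Gh1 are made by lactotroph and somatotroph cells of the anterior pituitary, under the control of Pou1f1, which binds their promoters and that of Tshb. Thyrotrophs and gonadotrophs make heterodimers of Cga with a hormone-specific beta subunit. The hormones leave the pituitary in blood and act on receptors elsewhere, and the receptors of prolactin and growth hormone signal through JAK2 and STAT5. The hippocampus is known as a target of these hormones rather than as a main source of them. A dissected subfield holds many cell types, and in such bulk samples fewer cells of a type and less RNA per cell cannot be told apart.

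Promoter windows from RefSeq (build GRCr8) were matched for 4 of the 7 genes, and the 250 bases before the annotated start are shown for Prl and Tshb because both are described targets of Pou1f1. The Prl window lies at chr17:38298218-38298467 on the minus strand and that of Tshb at chr2:192918055-192918304 on the minus strand, and the sequences below read 5′ to 3′ on the strand of the gene. Capitals mark a match to ATGNATA, a core of Pit-1 sites, searched on both strands.
Prl: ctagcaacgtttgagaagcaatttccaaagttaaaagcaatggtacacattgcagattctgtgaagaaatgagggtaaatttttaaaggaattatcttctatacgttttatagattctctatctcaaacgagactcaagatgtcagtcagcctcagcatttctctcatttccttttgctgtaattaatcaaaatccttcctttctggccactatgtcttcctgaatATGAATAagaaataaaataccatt
Tshb: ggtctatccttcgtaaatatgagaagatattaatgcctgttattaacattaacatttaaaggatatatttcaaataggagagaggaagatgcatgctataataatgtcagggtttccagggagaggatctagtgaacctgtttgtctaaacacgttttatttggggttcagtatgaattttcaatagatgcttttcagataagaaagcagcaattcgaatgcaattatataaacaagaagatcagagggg
The Prl window held 1 match, which began 24 bases before the start, and the windows of Tshb, Cga and Lhb held 0. Of 33469 windows of this length in the RefSeq table, 2923 (8.73%) held the motif, so a match is a description and not a site.

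Reads on genes, recovered as whole numbers from the deposited normalized counts, numbered between 4478984 and 21467303 a library (median 9755402). Most values of the 7 genes rest on few reads. The reads carry no molecular identifiers, so intervals and limits cover counting error only. By their identifiers the rats fall into 2 series. Series R9 holds 5 young, 6 AU and 5 AI animals. Series R1-R2 holds 5 young, 6 AU and 7 AI animals. The study tested rats at 2 sites, and the labels do not tie a series to a site. In the R1-R2 series, the marker list of the labelled subfield scored highest of the CA1, CA3 and DG lists in 18 of 18 CA1, 17 of 18 CA3 and 16 of 18 DG libraries. In the R9 series this held for 14 of 16 CA1 and 11 of 16 DG libraries but for only 3 of 16 libraries labelled CA3, so subfield differences are also given within each series.

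Prl was not seen in young rats and was seen in most aged rats, at levels that ranged from 1 read to 298 reads a library. No read fell on Prl in any of the 30 young libraries, at a summed depth that allows up to 0.00875 RPM (reads scaled to a common library size) over the group. Prl had at least 1 read in 15 of 36 AU libraries and 21 of 36 AI libraries. Counted by rat, it was found in at least 1 subfield of 0 of 10 young, 8 of 12 AU and 9 of 12 AI rats, and in all 3 subfields of 3 AU and 5 AI rats. AU and AI rats thus stood further apart in the number of reads than in the number of rats with a read. Rats with 10 or more Prl reads over their 3 libraries numbered 1 of 12 in the AU and 5 of 12 in the AI group.

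**Figure D1:**
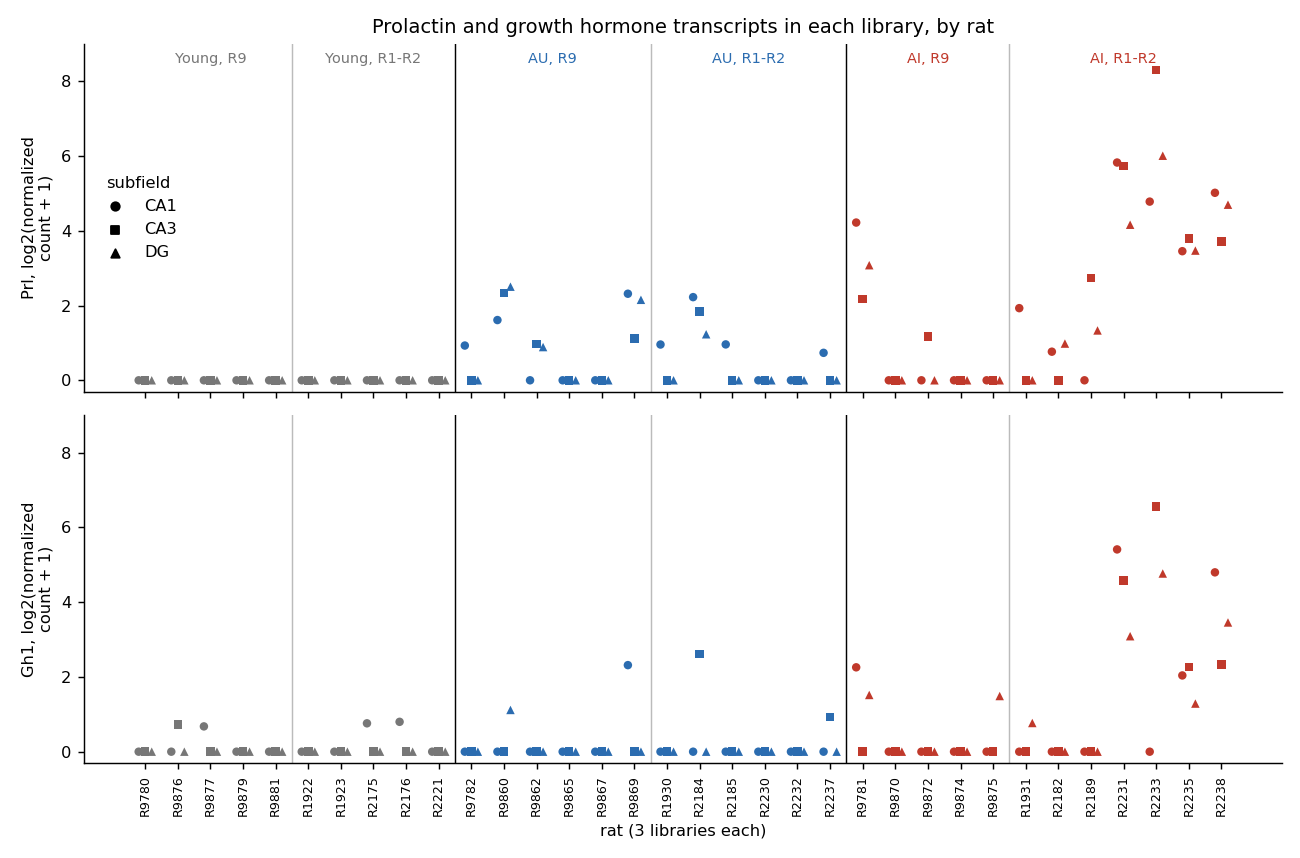
Log2(normalized count + 1) of Prl (top) and Gh1 (bottom) in each library, with rats on the x axis grouped by status and identifier series, 1 symbol shape per subfield and 1 colour per status. Prl is at 0 in all 30 young libraries and highest in 4 AI rats of the R1-R2 series, where Gh1 is also highest.

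Of 698 Prl reads in all, 626 (89.7%) came from 4 AI rats of the R1-R2 series, R2231, R2233, R2235 and R2238. Rat R2231 had 59 Prl reads in CA1, 50 in CA3 and 18 in DG. Rat R2233 had 18 in CA1, 298 in CA3 and 29 in DG, so that its CA3 library alone held 42.7% of all Prl reads. Rat R2235 had 16, 17 and 7 Prl reads in CA1, CA3 and DG, and rat R2238 had 69, 15 and 30. All 12 libraries of these rats exceeded every AU library, in which the highest count was 5. The subfield with the most reads was CA1 in R2238 and R2231 and CA3 in R2233 and R2235, so no subfield led in all 4. Prl reached 31.5 RPM in the CA3 of R2233, with a 95% Wilson interval of 28.1 to 35.3, against 5.90 RPM (4.58 to 7.62) in the CA1 of R2231.

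The other AI rats were lower. In the R1-R2 series, R1931 had 3 Prl reads in CA1 and 0 in CA3 and DG. R2182 had 1, 0 and 1 reads and R2189 had 0, 6 and 1 reads in CA1, CA3 and DG. In the R9 series only R9781 had Prl in every subfield, with 14, 3 and 8 reads in CA1, CA3 and DG. R9872 had 1 read in CA3, and R9870, R9874 and R9875 had 0 reads in all libraries. AI libraries of the R9 series thus had Prl in 4 of 15 cases, against 17 of 21 in the R1-R2 series.

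Among AU rats, R2184 had 5, 3 and 1 Prl reads in CA1, CA3 and DG, R9860 had 2, 5 and 4, and R9869 had 4, 1 and 3. R9862 had 1 read in CA3 and 1 in DG, and R1930, R2185, R2237 and R9782 had 1 read each, in CA1. R2230, R2232, R9865 and R9867 had 0 reads. Rats with adjacent identifiers fell on both sides: over 3 subfields the AU rats R2230, R2232 and R2237 had 0, 0 and 1 Prl reads, and the AI rats R2231, R2233, R2235 and R2238 had 127, 345, 40 and 114. Within the R9 series, 9 of 18 AU and 4 of 15 AI libraries held Prl, the opposite order to that of the R1-R2 series, where the counts were 6 of 18 and 17 of 21.

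The normalized count of Prl in CA1 ran from 0 to 3.98 with a median of 0.785 in AU rats, and from 0 to 55.8 with a median of 1.76 in AI rats. In CA3 it ran from 0 to 4.05 (median 0) in AU and from 0 to 315 (median 2.40) in AI rats. In DG the range was 0 to 4.68 (median 0) in AU and 0 to 63.4 (median 1.25) in AI rats. The AU and AI groups overlapped in each subfield, since 5 of 12 AI libraries were at 0 in each. On the log2(normalized count + 1) scale, the mean ± SD (n = 12) in CA1 was 2.17 ± 2.33 in AI and 0.81 ± 0.87 in AU rats. In CA3 it was 2.30 ± 2.70 against 0.52 ± 0.84, and in DG 1.98 ± 2.19 against 0.56 ± 0.92. The differences of AI minus AU, 1.36 (SE 0.70), 1.78 (SE 0.78) and 1.41 (SE 0.65), were smaller than the SD within the AI group. With each rat left out in turn, the difference lay between 1.02 and 1.55 in CA1. The ranges were 1.24 to 1.99 in CA3 and 1.05 to 1.59 in DG, with the lowest values without R2231, R2233 and R2233. Among R9 rats these differences were 0.03 (SE 0.74), -0.07 (SE 0.52) and -0.31 (SE 0.64), whereas R1-R2 rats gave 2.30 (SE 0.93), 3.16 (SE 1.14) and 2.75 (SE 0.84). In the fit of all 72 aged libraries with rat as a replicate block, the AI minus AU difference averaged over subfields was 1.52, with an SE of 0.42. That fit used 1 correlation for all genes between the libraries of a rat, 0.047, whereas Prl itself correlated at 0.81 to 0.93 among aged rats. Over the means of each rat, the SE of the same difference was 0.70 (n = 12 and 12).

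Pooled over the libraries of a group, Prl in CA1 reached 1.30 RPM in AI and 0.129 RPM in AU rats. The CA3 values were 3.33 and 0.0797 RPM, and the DG values 0.819 and 0.0866 RPM. The AI value was thus 10.1-fold, 41.8-fold and 9.45-fold the AU value, from 180 against 15, 390 against 10 and 94 against 9 reads. Without rat R2233 the CA3 ratio was 10.7, close to those of CA1 (9.52) and DG (6.80) without it. In the young rats Prl was at 0, and their limit was set at 3 reads over the group. The pooled AI value was 53.1-fold that limit in CA1, 118-fold in CA3 and 31.0-fold in DG. The AU value was 5.28-fold, 2.84-fold and 3.28-fold that limit. Only the young side is bounded here, and these ratios take in neither the counting error of the AI and AU values nor the spread between rats. Without R2233 the AI ratio in CA3 was 30.4.

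Prl varied together across the subfields of a rat. Over 34 rats, Pearson's r of log2(normalized count + 1) was 0.83 between CA1 and CA3, 0.91 between CA1 and DG, and 0.94 between CA3 and DG, with Spearman's rho of 0.65, 0.74 and 0.91. The 10 young rats at 0 add to these values, and among the 24 aged rats r was 0.81, 0.90 and 0.93. Within the 12 AI rats r was 0.78, 0.91 and 0.92, and within the 12 AU rats, where no library exceeded 5 reads, it was 0.67, 0.71 and 0.92. Within aged rats of the R9 series r was 0.73, 0.90 and 0.89, and within those of the R1-R2 series 0.83, 0.89 and 0.95. With each rat left out in turn, the lowest values were 0.79 (without R2231), 0.89 (without R2238) and 0.92 (without R2233). Across 16374 genes whose mean normalized count was 5 or more, the median r over the 34 rats was 0.12, 0.10 and 0.07 for the same pairs, and the 95th percentile was 0.46, 0.42 and 0.40. The libraries of a rat share the animal and its dissection, which cannot be told apart here.

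**Figure D2:**
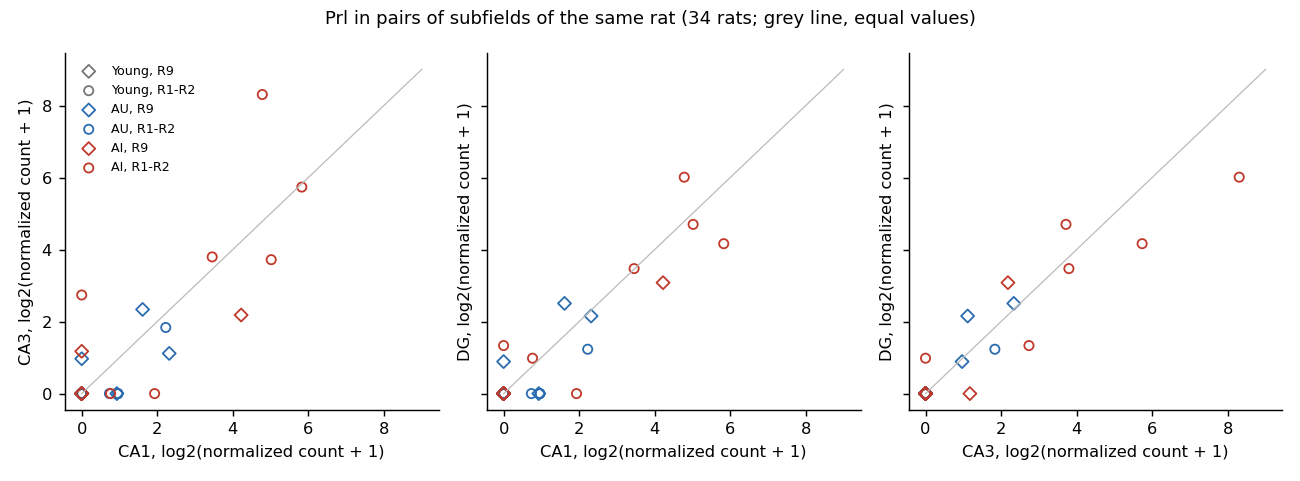
Log2(normalized count + 1) of Prl in 1 subfield against another subfield of the same rat, for 34 rats, with colour for status and shape for identifier series; the grey line marks equal values. Rats high in 1 subfield are high in the others, with r of 0.83, 0.91 and 0.94 from left to right.

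Gh1, the hormone of somatotrophs, followed Prl. It had at least 1 read in 23 libraries and 285 reads in all, of which 261 (91.6%) came from the same 4 AI rats that held most Prl. Gh1 reads in CA1, CA3 and DG were 44, 22 and 8 in R2231, 0, 88 and 12 in R2233, 5, 5 and 1 in R2235, and 59, 5 and 12 in R2238. R9781 had 3, 0 and 2 reads, and R9875 and R1931 had 2 and 1 reads in DG. The remaining AI rats had none. Among AU rats, R2184 had 6 reads in CA3, R9869 had 4 in CA1, and R2237 (CA3) and R9860 (DG) had 1 each. In young rats Gh1 had 1 read in the CA1 of R2175, R2176 and R9877 and in the CA3 of R9876, which is 4 reads over 30 libraries. Single Gh1 reads were thus seen in young rats, in which no Prl read was.

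The log2 difference of AI minus AU for Gh1 was 1.02 (SE 0.56) in CA1, 1.02 (SE 0.68) in CA3 and 1.27 (SE 0.44) in DG. Averaged over subfields it was 1.10, with an SE of 0.49 over the means of each rat. Leaving out R2233 brought the CA3 value to 0.54, and leaving out R2231 brought the CA1 value to 0.63. Gh1 covaried less tightly between subfields than Prl, with r over 34 rats of 0.46 (CA1 and CA3), 0.59 (CA1 and DG) and 0.83 (CA3 and DG). Without R2233, whose CA1 library had no Gh1 read, the first pair rose to 0.74 and the second to 0.85. Without R2231 the first fell to 0.22.

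Over all libraries, Prl and Gh1 had r of 0.85 on the log2 scale and rho of 0.56, and within the 36 AI libraries r was 0.87. Both were found in 16 libraries, which is 44.4% of those with Prl and 69.6% of those with Gh1. The Gh1 part of the summed Prl and Gh1 reads was compared in the 12 libraries with at least 15 such reads, all from AI rats. In 9 of these it lay between 17.6% and 30.8%, for example 22.8% (95% Wilson interval 18.9 to 27.2) of 386 reads in the CA3 of R2233. In the CA1 of R2231 it was 42.7% (33.6 to 52.4) of 103 reads and in the CA1 of R2238 46.1% (37.7 to 54.7) of 128 reads, and these intervals do not overlap that of R2233 CA3. In the CA1 of R2233 it was 0 of 18 reads, with an upper limit of 17.6%, below the whole interval of the CA3 library of the same rat. The mix of Prl and Gh1 thus differed between these libraries beyond their intervals, which cover counting error only. The 2 CA1 libraries of R2231 and R2238 had the highest shares of the 12 and that of R2233 the lowest, and the difference was not tested. Reads were not adjusted for transcript length.

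**Figure D3:**
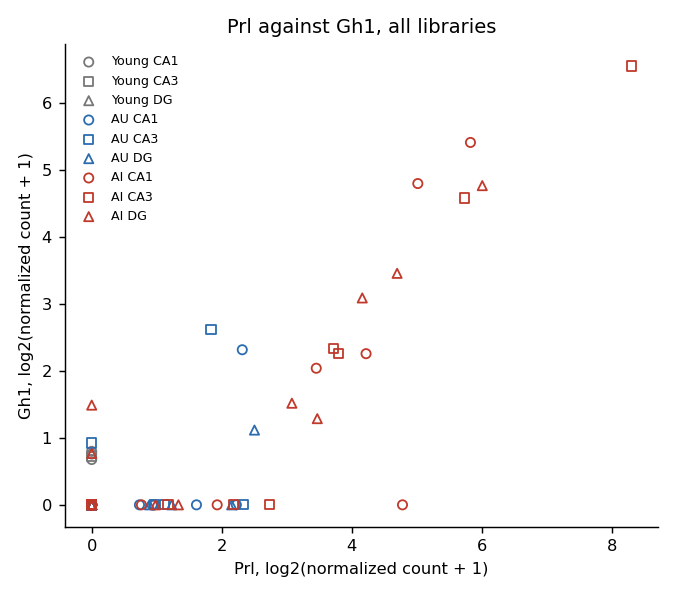
Log2(normalized count + 1) of Gh1 against Prl in all libraries, with colour for status and shape for subfield. Libraries high in Prl are high in Gh1 (r = 0.85), except the CA1 library of R2233 with 18 Prl and 0 Gh1 reads.

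Of the glycoprotein hormone subunits, Cga, the common alpha subunit, had 50 reads in all, in 6 of 30 young, 5 of 36 AU and 9 of 36 AI libraries. Its highest library was the CA3 of the AU rat R9860 with 15 reads, followed by 5 reads each in the CA3 of R2231 and R2233. R2231 was the only AI rat with Cga in all 3 subfields, at 3, 5 and 2 reads in CA1, CA3 and DG. R2238, rich in Prl and Gh1, had 0 Cga reads. Cga had r of 0.40 with Prl over all libraries, and within AI libraries r of 0.58 with Prl and 0.66 with Gh1.

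Lhb, the beta subunit of luteinizing hormone, was detected in 88 libraries and in 26 of 30 young libraries, so its presence was not tied to age. Its normalized count ran from 0 to 14.9 (median 5.69) in young, 0 to 13.5 (median 5.16) in AU and 0 to 42.1 (median 5.12) in AI libraries. The highest library was the CA3 of R1931, with 55 reads. Tshb, the beta subunit of thyroid-stimulating hormone, was detected in 80 libraries, at 0 to 14.7 (median 2.95) in young, 0 to 28.0 (median 2.77) in AU and 0 to 11.3 (median 1.52) in AI libraries. Fshb, the beta subunit of follicle-stimulating hormone, was detected in 15 of 30 young, 10 of 36 AU and 18 of 36 AI libraries. Of its 145 reads, 42 came from the CA3 of R9781, which had 0 Fshb reads in CA1 and DG. Pou1f1, the shared regulator of Prl, Gh1 and Tshb, had 70 reads in all, in 12 of 30 young, 14 of 36 AU and 12 of 36 AI libraries. No library had more than 9 reads, the value in the CA3 of the AU rat R9869. In the CA3 library of R2233, where Prl was highest, Pou1f1 had 1 read.

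With Prl, r over all libraries was 0.00 for Lhb, -0.09 for Tshb, 0.18 for Fshb and 0.01 for Pou1f1. The highest r among the remaining pairs without Prl was that of Gh1 and Cga (0.37), followed by Lhb and Tshb (0.26). Over all libraries Prl and Gh1 thus varied together, Cga more weakly (rho of 0.27 with Prl), and the other members did not follow them. Within the 36 AU libraries, r with Prl was 0.47 for Gh1, 0.27 for Fshb, 0.26 for Lhb and 0.25 for Cga. It was 0.22 for Pou1f1 and 0.20 for Tshb, so Cga did not stand apart there.

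**Figure D4:**
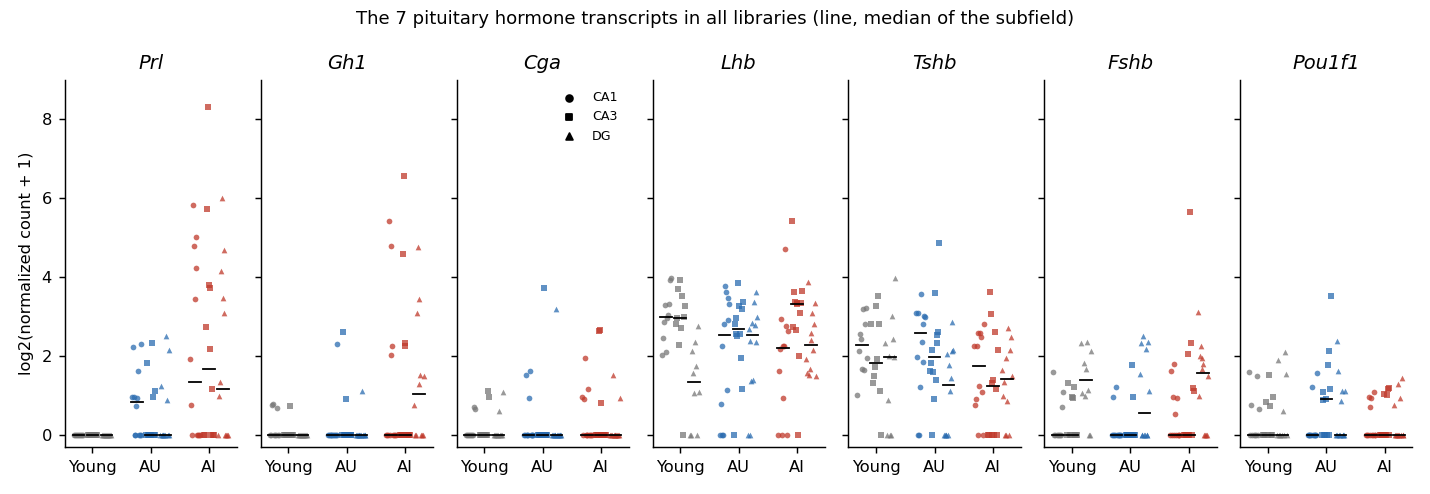
Log2(normalized count + 1) of the 7 genes in all libraries by status, with shape for subfield and a black line at the median of each subfield. Prl and Gh1 are at or near 0 in young rats and spread widely in AI rats, whereas Lhb and Tshb are detected in all 3 groups, with highest values of 42.1 (AI) and 28.0 (AU) normalized counts.

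Between subfields, limma was run over all libraries (34 per subfield) with Benjamini-Hochberg adjustment. Prl and Lhb passed the filter of a mean of at least 5 normalized counts, and the other 5 genes were taken from the fit without it. Prl is in that fit only through its high AI libraries. Of the 7 genes, 0 were called in CA1 against CA3, 1 in CA1 against DG and 2 in CA3 against DG, where 15%, 28.5% and 28.9% of all tested genes were called with the filter and 9.53%, 18.3% and 18.8% without it. These shares of the 7 do not stand out from the background.

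Fshb was higher in DG. It was detected in 22 of 34 DG libraries, 10 of 34 CA1 and 11 of 34 CA3 libraries. The mean log2 value (± SD, n = 34) was 1.20 ± 1.01 in DG, 0.34 ± 0.57 in CA1 and 0.58 ± 1.13 in CA3. CA1 minus DG was -0.86 (SE 0.22, limma adjusted p = 0.00238), and CA3 minus DG was -0.63 (SE 0.22, limma adjusted p = 0.036). The first call held with each of the 34 rats left out in turn. The second was lost in 15 of these 34 fits, with a highest limma adjusted p of 0.070 (without R1931), and with a pseudocount of 5 (-0.19). Within the R1-R2 series both differences were called, at -1.08 (limma adjusted p = 0.000936) and -1.32 (limma adjusted p = 2.2e-05). Within the R9 series, where few libraries labelled CA3 had CA3 markers highest, neither was called, at -0.63 and 0.15. With edgeR on the recovered reads, Fshb was called lower in CA1 than in CA3 (-1.87, edgeR adjusted p = 0.010) and not between CA3 and DG (-0.02). DESeq2 gave -2.12 (DESeq2 adjusted p = 0.0222) for CA1 minus CA3. Of the 61 Fshb reads in CA3, 42 were those of R9781, and without this rat the limma difference of CA1 minus CA3 moved from -0.24 to -0.07. Without the filter edgeR and DESeq2 called 12.1% and 12.6% of all genes in that pair.

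Lhb was higher in CA3 than in DG by 0.82 (SE 0.29, limma adjusted p = 0.0227), with means of 2.79 ± 1.13 and 1.97 ± 1.09 (SD, n = 34). This call held with each of the 34 rats left out. Within the R1-R2 series the difference was 1.41 (limma adjusted p = 0.00327), and CA1 was also lower than CA3 there, with a CA1 minus CA3 difference of -1.46 (limma adjusted p = 0.00235). Within the R9 series the CA3 minus DG difference was 0.17 (limma adjusted p = 0.779).

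Prl did not pass the test between subfields. Its differences were 0.05 (95% interval -0.77 to 0.87) for CA1 minus CA3, 0.15 (-0.67 to 0.97) for CA1 minus DG and 0.10 (-0.72 to 0.92) for CA3 minus DG, with limma adjusted p-values of 0.952, 0.817 and 0.886. In the fit without the filter, which does not depend on the high AI libraries for Prl to be included, limma adjusted p-values were 0.976, 0.860 and 0.921. These intervals come from a fit that did not pair the subfields of a rat, with an SE of 0.42 for each pair. Blocking on the rat, which pairs the subfields, gave an SE of 0.17 and limma adjusted p-values of 0.870, 0.517 and 0.687. With edgeR, CA3 exceeded DG by 1.77 (edgeR adjusted p = 0.0382), in a fit that called 31.9% of genes. That fit had the filter, which Prl passes only through its high AI libraries. With rat R2233 left out and no filter on low values, the difference was 0.37 (edgeR adjusted p = 0.732). These 2 changes were made together, and their parts cannot be told apart here. Gh1, Cga, Tshb and Pou1f1 were not called in any pair of subfields, and the largest of their differences was that of Tshb in CA1 minus DG, 0.64 (95% interval 0.11 to 1.18, limma adjusted p = 0.0925). Tshb passed the test in this pair when R9874 or R9881 was left out, at 0.74 and 0.72.

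Between AI and AU rats, limma called 0 genes in each subfield (0%), with 341, 264 and 287 genes at an unadjusted p under 0.05 in CA1, CA3 and DG, and edgeR and DESeq2 on the recovered reads also called 0. Among the members, Prl and Gh1 had the largest positive differences in each subfield. Fshb was higher in AI by 0.31 (SE 0.22), 0.80 (SE 0.48) and 0.27 (SE 0.41), and the CA3 value was 0.38 without R9781. Tshb differed by -0.58 (SE 0.44), -0.84 (SE 0.50) and 0.18 (SE 0.39) in CA1, CA3 and DG. Pou1f1 differed by 0.07 (SE 0.20), -0.59 (SE 0.33) and -0.22 (SE 0.27), on both sides of 0. Lhb differed by -0.15, 0.53 and 0.22, and Cga by 0.08, 0.20 and -0.06. The median of all tested genes was 0.02, -0.02 and 0.00.

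**Figure D5:**
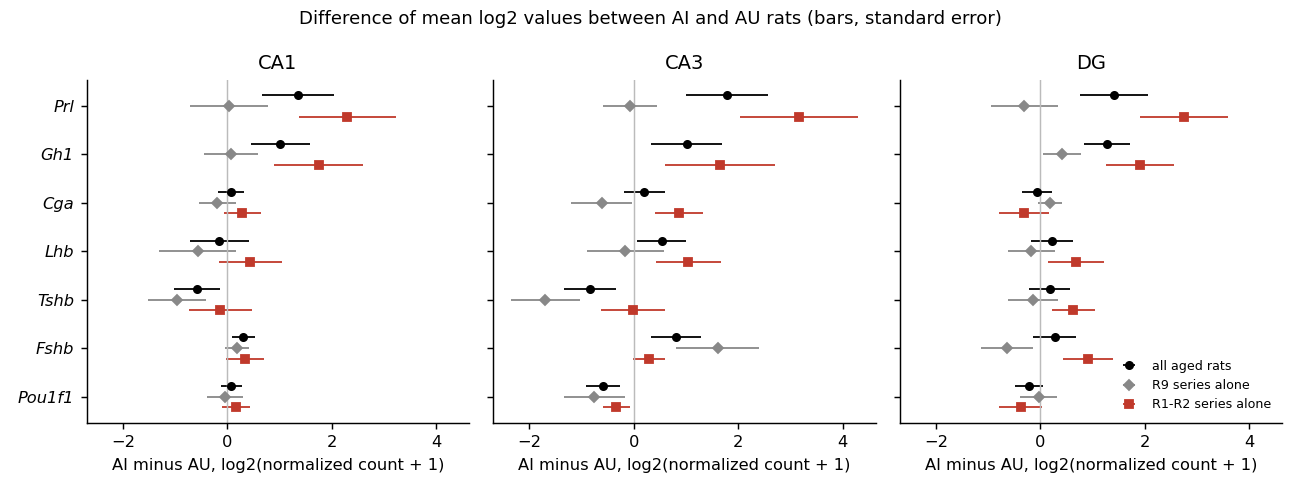
AI minus AU difference of mean log2(normalized count + 1) of the 7 genes in CA1, CA3 and DG, with standard errors, for all aged rats (black circles) and for the R9 (grey diamonds) and R1-R2 (red squares) series alone. For Prl the R1-R2 values are 2.30, 3.16 and 2.75 and the R9 values 0.03, -0.07 and -0.31.

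Between aged and young rats, limma called 3, 1 and 12 genes in CA1, CA3 and DG (0.0183%, 0.00607% and 0.0741% of those tested). Prl was higher in aged rats by 1.49 (SE 0.56), 1.41 (SE 0.67) and 1.27 (SE 0.54), and Gh1 by 0.48 (SE 0.47), 0.73 (SE 0.52) and 0.73 (SE 0.40). These standard errors pool both groups. For Prl, and for Gh1 in DG, the young values did not vary. Lhb differed in opposite directions, by -1.07 (SE 0.47) in CA1 and 0.98 (SE 0.37) in DG, with -0.04 (SE 0.43) in CA3. The difference between these subfields was not tested. Tshb differed by -0.39 (SE 0.38), -0.30 (SE 0.46) and -0.45 (SE 0.40). Cga, Fshb and Pou1f1 differed by between -0.21 and 0.26.

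Other genes of the anterior pituitary, from a list of 15, were set beside these values. Pomc, the precursor of adrenocorticotropic hormone, was found in 98 libraries, with medians of 12.5, 10.2 and 18.4 normalized counts in young, AU and AI libraries. In the 12 libraries richest in Prl and Gh1 it ran from 13.1 to 39.7, inside the range of 0 to 43.0 seen in AU rats. All 12 values lay above the young and AU medians, and they lay on both sides of the AI median. AI minus AU differences of Pomc were 1.19 (SE 0.54) in CA1, 0.37 (SE 0.55) in CA3 and 0.81 (SE 0.34) in DG, with a limma adjusted p of 1 in each. Hesx1, a transcription factor of the developing pituitary, had 1 read over all libraries, and Pitx1 had 61. None of the 15 genes was called between AI and AU or between aged and young rats. Over all genes, 0% and at most 0.0741% were called. Between AI and AU, 2 of 14, 1 of 13 and 3 of 15 genes with a read had an unadjusted limma p under 0.05 in CA1, CA3 and DG. Over all genes 341 of 16406, 264 of 16436 and 287 of 16182 had such a p with the filter. Without the filter these were 579 of 22885, 483 of 22838 and 551 of 22703. Between aged and young rats, 0, 0 and 1 genes of the list had such a p. These shares were not compared by a test. Rbp4 had the highest mean of the list, at 140.3 normalized counts. The summed list spanned 154 to 1966 (median 292) in young libraries, 66.9 to 529 (median 308) in those of AU rats and 159 to 746 (median 285) in those of AI rats. In the CA3 library of R2233 the sum was 285, and in the CA1 of R2238 it was 234. The highest AI sum, 746, was that of the CA1 of R2231, where Rbp4 alone was at 592. Rbp4, Trhr and Dlk1 held 15720, 8126 and 5062 of the 35306 reads of the list. The sum thus mostly follows these genes and says little about the rarer ones. The part of anterior pituitary cells in the Prl levels was not tested.

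The prolactin family of the rat holds many paralogs known from the placenta. Of 23 listed symbols, 18 had a read in some library and together they had 48 reads. No library had a summed normalized count of them over 3.82. The sum was 0 in the CA3 of R2233, 0.946 in the CA1 of R2231 and 0 in the CA1 of R2238. How reads that match more than 1 of these genes were assigned was not tested.

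Receptors and their pathway were set beside the hormones. The row of the prolactin receptor was not found by its symbol and is not analysed here. Ghr, the growth hormone receptor, had medians of 147, 127 and 120 normalized counts in young, AU and AI libraries. It was lower in CA1 than in DG, with a difference of -0.67 (SE 0.12, limma adjusted p = 5.98e-06), and lower in CA3 than in DG, with a difference of -0.46 (SE 0.12, limma adjusted p = 0.00172). Between AI and AU rats Ghr differed by -0.32 (SE 0.19), 0.14 (SE 0.23) and -0.01 (SE 0.20), with a limma adjusted p of 1 in each. Aged minus young differences of Ghr were -0.30 (SE 0.16), 0.003 (SE 0.21) and -0.42 (SE 0.17), with a limma adjusted p of at least 0.596. Ptpn11, a phosphatase of this pathway, had the highest mean of the list, 5360 normalized counts. The 15 genes found in the list include Stat5a, Stat5b, Cish, Socs1, Socs3 and Igf1. Of these 15, 0 were called between AI and AU rats and 0 between aged and young rats in any subfield. Over all genes, 0% and at most 0.0741% were called. Medians of the genes that passed the filter lay between -0.01 and 0.18. In aged minus young, 1, 0 and 5 of the 15 had an unadjusted limma p under 0.05 in CA1, CA3 and DG. Over all genes 562 of 16385, 252 of 16471 and 1348 of 16192 had such a p. For Cish, a target of STAT5, medians were 25.0, 26.2 and 29.7 in young, AU and AI libraries, and r with Prl was 0.06.

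Markers of neighbouring tissue and blood were measured in the same libraries. The summed hypothalamic neuropeptides spanned 22.5 to 164 (young, median 57.1), 1.92 to 181 (AU, median 53.7) and 0 to 163 (AI, median 50.9). The sum was 39.1 in the CA3 of R2233, 69.0 in the CA1 of R2231 and 48.2 in the CA1 of R2238. Of the 11 listed, Pmch was at 0 in all libraries, and Gal had the highest mean (14.6). The choroid plexus list, led by Ttr, varied over orders of magnitude in every group. Its sum spanned 28.1 to 15032 (young, median 281), 1.92 to 145661 (AU, median 214) and 41.2 to 180437 (AI, median 310), and its r with Prl was 0.11. Among the libraries rich in Prl it was 2910 in the CA3 of R2233 and 11468 in the CA1 of R2231, above all 3 medians, and 73.7 in the CA1 of R2238, below them, and its part in the Prl levels was not tested. Red blood cell markers, led by Hba-a2, spanned 147 to 2085 (young, median 458), 238 to 4052 (AU, median 672) and 221 to 7246 (AI, median 761). Their r with Prl was -0.10. Their sum was 430 in the CA3 of R2233, 751 in the CA1 of R2231 and 390 in the CA1 of R2238. Of these 3 lists, 0 genes were called between AI and AU or between aged and young rats in any subfield. Over all genes, 0% and at most 0.0741% were called. In aged minus young, 2, 0 and 2 of the 3 red blood cell genes had an unadjusted limma p under 0.05 in CA1, CA3 and DG. Their median differences were 0.86, 0.32 and 0.59. Over all genes 562 of 16385, 252 of 16471 and 1348 of 16192 had such a p.

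The genes whose pattern was most like that of Prl were ranked by Spearman's rho over all libraries among 21268 genes with values above 0 in at least 10 libraries. Gh1 came first (0.56), then Tlr2 (0.41), Pomc (0.39), ENSRNOG00000011236 (0.39), Adgre1 (0.39), Wdfy4 (0.38), Gpr84 (0.38), Krt40 (0.36), Fcgr3a (0.35) and Tfr2 (0.34). Tlr2, Adgre1, Gpr84 and Fcgr3a are known from microglia and macrophages, and their medians were higher in AU and AI than in young libraries, for example 63.8, 80.7 and 84.0 for Tlr2. Among the 72 aged libraries alone, rho with Prl was 0.65 for Gh1, 0.44 for Pomc and 0.29 for Tlr2. For Gh1 the nearest genes were Prl (0.56), ENSRNOG00000024713 (0.45), Gpr174 (0.43), Asb12 (0.40) and Car15 (0.40), of which all but Prl had medians under 1 normalized count in every group.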

How the data were processed

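Per the labels and the study's methods, the authors aligned poly-A Ion Proton reads to rat build rn5 with TopHat2 and Bowtie2, counted reads per gene with featureCounts 1.4.4 and divided the counts by DESeq2 1.10.1 size factors. The deposited signal is this normalized count, in 1 table of all libraries. Whole reads were recovered for 100% of values (relative tolerance 1e-06). Libraries were prepared with PCR and without molecular identifiers. The 7 members and all gene lists were chosen with earlier results of these data known.

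Values were compared as log2(normalized count + 1) with limma 3.58.1 (trend, R 4.3.3) over genes with a mean of at least 5, calling genes at a Benjamini-Hochberg adjusted p under 0.05. Members below that mean came from the same fit without the filter. Alternatives were pseudocounts of 0.5 and 5, no filter, a mean of at least 20, TMM rescaling, identifier series as a covariate or alone, edgeR 4.0.16 and DESeq2 1.42.0 on recovered reads, each rat left out, and rat as a replicate block. Correlations within aged rats, within series and with each rat left out, edgeR without R2233 and the means of each rat were added after seeing the data. Only the limma fit was tested on simulated data, for CA1 minus CA3, AI minus AU in CA3 and aged minus young in CA3. Counts were drawn independently for each library, and changes were put only into genes with a mean of at least 5. Changes of log2 1 were recovered in 70% to 94% of cases and those of log2 2 in 92% to 95%. Of the calls, 6.04% to 6.9% were false. Members below that mean, and covariation within a rat as seen for Prl, were not covered. Each rat gave all 3 subfields, so the block pairs libraries of the same animal. The median over 16374 genes of the correlation across rats was 0.12 (CA1 and CA3), 0.10 (CA1 and DG) and 0.07 (CA3 and DG). The main fit between subfields did not use the rat block, so its p-values and intervals measure the spread between libraries. P-values within a subfield measure the spread between these rats. Named genes were the 7 members, the 10 genes nearest to Prl and 5 nearest to Gh1 by Spearman's rho, Ghr, list genes called by status or age, and the highest gene of each marker list. Others named in the lists were chosen after their values were seen. The motif ATGNATA was searched in RefSeq promoter windows.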

Additional observations from a re-analysis of the deposited data

Results flagged for a closer look

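In 3 libraries, 4 values stood apart from the other 9 rats of their group by Dixon's gap test, out of 17 groups of 10 young libraries tested. Its nominal rate of about 1 in 20 groups is for normally distributed values and does not hold for counts near 0. A group with a single library above 0 is always flagged, as for Gh1 here. Tshb reached 14.7 normalized counts in the DG of the young rat R9881. Cga was 1.13 in the same DG library. Gh1 was 0.656 in the CA3 of the young rat R9876, from 1 read, and Pou1f1 was 1.86 in the CA3 of the young rat R9780. Another 4 groups held equal values and were not tested.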

How the results depend on the processing

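Of 231 values of the 7 genes between subfields under other settings, 201 kept their direction and their side of the threshold, 20 changed sign and 10 changed their call. For Prl, CA1 minus CA3 was -0.017 with a pseudocount of 5 and -1.35 with edgeR, CA1 minus DG was -0.39 with DESeq2, and CA3 minus DG was 1.77 with edgeR, -0.47 with DESeq2 and -0.053 in the R9 series. With each rat left out, Prl CA1 minus CA3 ran from -0.0063 (without R9781) to 0.16, and was also below 0 without R1931. For Fshb, CA3 minus DG was 0.045 with DESeq2 and 0.15 in the R9 series. Among values not called in either fit, CA1 minus CA3 turned to 0.28 for Gh1 and 0.48 for Lhb in the R9 series, to 0.24 for Fshb and 0.078 for Pou1f1 in the R1-R2 series, to -0.020 (edgeR) and -0.036 (DESeq2) for Tshb, and, with edgeR without R2233, to 1.07 for Gh1 and -0.024 for Tshb. CA1 minus DG turned to -1.85 for Gh1 (DESeq2) and -0.058 for Lhb (R1-R2 series). CA3 minus DG turned to -0.21 (R9 series) and -0.39 (DESeq2) for Gh1 and -0.18 for Pou1f1 (R1-R2 series). With each rat left out, CA1 minus CA3 ran from -0.10 to 0.17 for Gh1 and -0.091 to 0.036 for Cga, CA1 minus DG from -0.023 to 0.19 for Gh1, and CA3 minus DG from -0.0032 to 0.12 for Gh1 and -0.0042 to 0.13 for Pou1f1. The cause was not tested. With rat as a replicate block, no call between subfields changed, and limma adjusted p-values for Prl were 0.870, 0.517 and 0.687. With a mean of at least 20, no member was left.

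For Prl, AI minus AU with edgeR was 3.20, 5.23 and 3.23 in CA1, CA3 and DG, and with DESeq2 it was 3.39 in CA1 and 3.57 in DG. In the R9 series it was -0.065 in CA3 and -0.31 in DG. Aged minus young for Prl with edgeR was 5.94, 7.16 and 5.38 in the same order, and with DESeq2 5.44, 4.52 and 5.07. Both are fitted on counts without the pseudocount of the log2 values. Prl correlations by ranks were 0.65, 0.74 and 0.91. Pearson's r for Prl in aged R9 rats was 0.73 for CA1 and CA3 and 0.89 for CA3 and DG. Genes called were 814 in place of 2463 for CA1 minus CA3 in the R9 series, and 2341 in place of 4671 for CA1 minus DG in the R1-R2 series. By age they ran from 0 to 6 in CA1, 0 to 5 in CA3 and 1 to 39 in DG over all settings. At these depths, most libraries had no read of Gh1, Cga, Fshb or Pou1f1.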
